A study of Mus musculus with 4 samples.

Results

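The 10 serotonin receptor genes Htr1a, Htr1b, Htr1f, Htr2a, Htr2c, Htr3a, Htr4, Htr5a, Htr6 and Htr7 were followed over coronal brain sections of male mouse offspring. They were taken by symbol from the 19465 features measured, and all 10 had a feature. The sections came from C57BL/6J pups at postnatal day 21 whose dams ate a diet with 2 mg/kg folic acid (MF) or 20 mg/kg folic acid (HF) from 2 weeks before mating until the end of lactation. Each diet had 2 sections, MF replicates 1 and 2 and HF replicates 1 and 2, and no deletion, transgene or drug was used in either diet. The assay was Visium for formalin-fixed tissue, in which probe pairs against each transcript are captured on an array of spots and counted as unique molecular identifiers (UMIs). A spot covers a small region that can hold several cells of different types.

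Serotonin is released in the forebrain by axons of raphe neurons in the brainstem, so the cell bodies that make it lie outside sections of this level. Its receptors sit on the receiving cells, and which receptor a cell uses sets how it responds. The Htr1 and Htr5 receptors couple to inhibitory G proteins that lower cyclic AMP, the Htr2 receptors couple to Gq and phospholipase C, and Htr4, Htr6 and Htr7 couple to stimulatory G proteins that raise cyclic AMP. Htr3a is the exception, the subunit of a cation channel that serotonin opens directly.

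The section totals after filtering were 90096877 and 42422997 UMIs for MF replicates 1 and 2, and 34982061 and 42506921 UMIs for HF replicates 1 and 2, over 3197 to 3598 spots each. Levels are given as CPM, the UMIs of a gene per 1e6 UMIs of the same section or area, formed from UMIs summed per section or per area of a section. Over the 4 sections the receptors ranged from 415 UMIs for Htr6 to 13086 UMIs for Htr2c. How strongly a gene is counted depends on its probes, so levels were compared between areas and sections for 1 gene and never between genes. In summed spots, fewer expressing cells and less RNA per cell cannot be told apart. HF replicate 2 stood apart from the other sections. On the first principal component of whole-section profiles, which held 59.1% of the variance, it scored 32.9 while the other sections scored between -13.7 and -7.61. It also held 17 spots of the olfactory cortex and amygdala against 67 to 84 in the others, and 103 spots of the reticular thalamic nucleus against 40 to 50. HF replicate 1 was set off on the second component, which held 29.7% of the variance, at -21.1 against -2.27 to 13.7. It held 298 Ddn and Ptgds spots against 129 to 145 in the others, and 15 spots of a thalamic cluster led by Tcf7l2 and Synpo2 against 139 to 235. The plane or position of the section cannot be told apart from the diet for such differences.

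Spots were grouped into 24 areas by clustering that left out every serotonin gene. An area carries an anatomical name where its leading genes held enough known markers, and otherwise the names of its leading genes. Among the latter, the Kcnh5 and Gm11549 spots are cortical spots that also had Rorb, a layer 4 marker, among their leading genes, and the Myl4 and Hs3st2 spots are cortical spots led also by Fezf2, a layer 5 marker. The Neurod6 and Cabp7 spots are hippocampal spots with Grik4, a CA2-3 marker, and the Ccn3 and Slc30a3 spots are cortical spots led also by Lmo3 and Hrk. Comparisons between areas used the 21 areas with at least 20 spots in every section, in an edgeR model with the section as a block. Folds between areas come from this model. The mean of the other areas is there the mean of their log2 levels, so a fold can differ from the ratio of mean CPM. Choroid plexus, with 9 to 12 spots a section, olfactory cortex and amygdala, and the Ecrg4 and Enpp6 spots fell below that limit. They are described by their levels, apart from a few added tests of the choroid plexus that are given with their values.

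**Figure D1:**
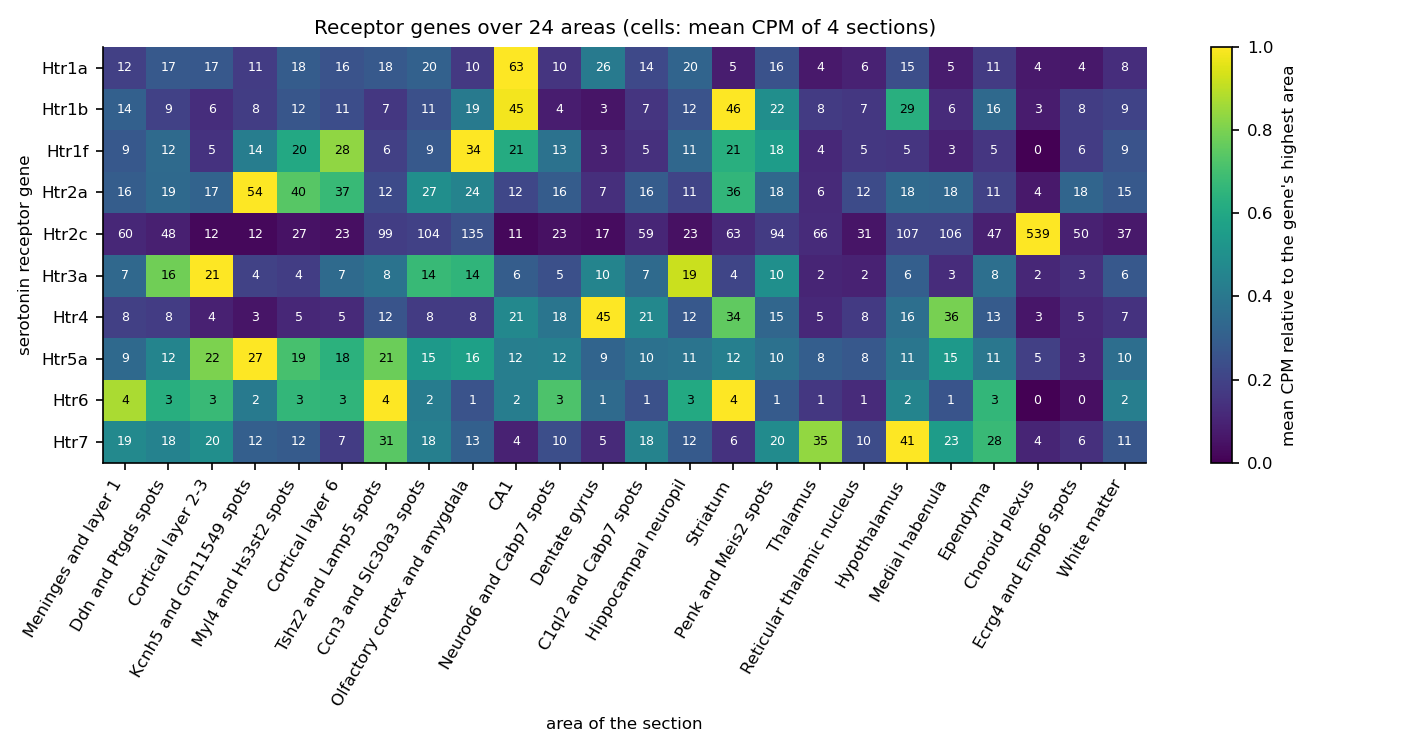
Mean CPM of each serotonin receptor gene (rows) in 24 areas of the section (columns), averaged over 4 sections. Colour gives the level relative to the gene's own highest area and the number in each cell is the mean CPM, so Htr2c reads 539 in choroid plexus and Htr1a reads 63 in CA1.

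Among the receptors coupled to inhibitory G proteins, Htr1a (GRCm38 chromosome 13, 105443639 to 105448122) was highest in the pyramidal layer of CA1. There it reached 46.98 and 62.29 CPM in the MF sections, replicates 1 and 2, and 78.98 and 62.34 CPM in the HF sections, a mean of 62.6 ± 13.1 CPM (SD, n = 4). The lowest CA1 section still lay above every section of the next area, the dentate gyrus, at 25.9 ± 11.4 CPM with 42.7 CPM as its highest section. CA1 was 2.77-fold above the dentate gyrus (log2 1.47 ± 0.23 SE, adjusted p = 4.9e-08, edgeR) and 5.19-fold above the mean of the other areas (adjusted p = 1.8e-21). Htr1a is the receptor through which serotonin opens potassium channels and quiets pyramidal cells. In the thalamus it was at 4.22 ± 0.48 CPM, the lowest of the areas tested.

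Htr1b (chromosome 9, 81628291 to 81633828), best known as a receptor on axon terminals that limits transmitter release, had 2 peaks. Its striatal level was 38.34 and 36.13 CPM in MF and 47.66 and 60.22 CPM in HF, with a mean of 45.6 ± 10.96 CPM. In CA1 it stood at 35.43, 38.47, 54.85 and 50.35 CPM in the same order, with a mean of 44.8 ± 9.30 CPM. The order of these leading areas was not resolved (log2 -0.01 ± 0.19 for striatum over CA1, adjusted p = 0.97). Striatum was 4.75-fold above the mean of the other areas, and 19 of the other 20 areas lay below it at an adjusted p under 0.05. The dentate gyrus, which borders CA1, held 2.58 ± 0.39 CPM of Htr1b, the lowest of the areas tested. Both Htr1a and Htr1b were thus high in CA1, while the striatum held 5.10 ± 2.60 CPM of Htr1a.

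Htr1f, a close relative of Htr1b and a target of migraine drugs, followed the deep cortex. Its highest mean among the areas tested was in cortical layer 6, at 27.32, 30.21, 29.71 and 24.58 CPM in MF replicates 1 and 2 and HF replicates 1 and 2. These sections lay close together, at 28.0 ± 2.58 CPM. Layer 6 was 1.51-fold above the striatum (adjusted p = 0.013), whose sections spread from 14.4 to 28.7 CPM, and it could not be told apart from CA1, the Myl4 and Hs3st2 spots or the Penk and Meis2 spots. In olfactory cortex and amygdala Htr1f was at 33.6 ± 8.87 CPM over 96 UMIs, with 24.3 CPM in the lowest section. The upper layers were poor in it, with a mean of 4.97 CPM in cortical layer 2-3.

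Htr5a, a receptor of which little is known beyond its coupling, was also cortical, and its peak lay further up. It stood at 23.26 and 24.96 CPM in the Kcnh5 and Gm11549 spots of the MF sections and at 29.38 and 32.37 CPM in those of the HF sections. The mean of 27.5 ± 4.15 CPM was 2.41-fold above that of the other areas (adjusted p = 3.7e-13). Cortical layer 2-3, at 22.0 ± 6.47 CPM, and the Tshz2 and Lamp5 spots, at 21.3 ± 9.02 CPM, could not be told apart from it. Its lowest mean among the areas tested was 7.54 ± 5.11 CPM, in the reticular thalamic nucleus.

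The Htr2 genes, both coupled to Gq, peaked in different areas. Htr2a, the receptor of the classical hallucinogens, was highest in the Kcnh5 and Gm11549 spots, at 51.92 and 71.54 CPM in the MF sections and 50.74 and 43.42 CPM in the HF sections. The mean there was 54.4 ± 12.0 CPM, against 40.2 ± 6.67 CPM in the Myl4 and Hs3st2 spots and 36.7 ± 7.36 CPM in cortical layer 6. The step from the first to the second of these was 1.43-fold (adjusted p = 0.0046), and all 20 other areas lay below the Kcnh5 and Gm11549 spots at an adjusted p under 0.05. In HF replicate 2 the step was absent, with 43.97 CPM in the Myl4 and Hs3st2 spots. Striatum followed at 35.8 ± 3.83 CPM, and cortical layer 2-3 held 17.3 CPM. The Myl4 and Hs3st2 spots join clusters of unlike level. With each cluster taken as its own area, the larger of them held 49.1 CPM. It could not be told apart from the Kcnh5 and Gm11549 spots (adjusted p = 0.43, edgeR).

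Htr2c (chromosome X, 146962513 to 147197277), a receptor that lowers food intake and is the classical serotonin receptor of the choroid plexus, was higher in choroid plexus than anywhere else. It reached 379.98, 547.53, 695.20 and 533.63 CPM in the choroid plexus of MF replicates 1 and 2 and HF replicates 1 and 2, a mean of 539.1 ± 128.8 CPM. The 44 choroid plexus spots made up 0.327% of all spots and held 5.95% of the Htr2c UMIs. When areas with at least 5 spots in every section were admitted, choroid plexus was 4.55-fold above the second area (log2 2.19 ± 0.15 SE, adjusted p = 1.9e-25). That second area was olfactory cortex and amygdala, at 134.5 ± 8.49 CPM. Every choroid plexus section lay above every section of that area, whose highest was 144.3 CPM.

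Outside the choroid plexus, Htr2c formed a plateau over several areas. The hypothalamus was at 106.7 ± 22.4 CPM, the medial habenula at 105.7 ± 19.8 CPM, the Ccn3 and Slc30a3 spots at 103.6 ± 19.7 CPM, the Tshz2 and Lamp5 spots at 98.6 ± 7.72 CPM and the Penk and Meis2 spots at 93.9 ± 7.50 CPM. None of these could be told apart from the hypothalamus, which was 2.51-fold above the mean of the other areas with at least 20 spots in every section (adjusted p = 4.1e-31). The low end among the areas tested held CA1 at 11.5 ± 8.33 CPM, the Kcnh5 and Gm11549 spots at 11.6 ± 5.51 CPM and cortical layer 2-3 at 12.1 CPM. Within the thalamus the level varied between clusters of spots, from 34.3 CPM in spots led by Rab37 and Prkcd to 141.0 ± 12.2 CPM in 151 spots led by Calb2, Lhx9 and Gbx2.

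Htr3a, which in cortex marks a class of interneurons, was sparse and patchy. In cortical layer 2-3 it stood at 13.49, 26.22, 24.87 and 19.57 CPM, and in the hippocampal neuropil at 25.34, 13.15, 17.00 and 22.03 CPM, both in the order MF replicates 1 and 2, HF replicates 1 and 2. The sections crossed, so neither area was above the other (adjusted p = 0.82). The Ddn and Ptgds spots (adjusted p = 0.48) and the Ccn3 and Slc30a3 spots (adjusted p = 0.079) could not be told apart from layer 2-3. Layer 2-3 was 3.28-fold above the mean of the other areas (adjusted p = 4.4e-11). The Kcnh5 and Gm11549 spots and the Myl4 and Hs3st2 spots, also cortical, held 4.15 ± 1.35 and 3.85 ± 1.45 CPM.

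Among the receptors that raise cyclic AMP, Htr4 was highest among the granule cells. It reached 41.15, 43.05, 51.25 and 44.57 CPM in the dentate gyrus, a narrow 45.0 ± 4.39 CPM. The medial habenula followed at 35.8 ± 7.26 CPM and the striatum at 34.0 ± 9.98 CPM. The dentate gyrus was 1.37-fold above the medial habenula (adjusted p = 0.0096), and all 20 other areas lay below it at an adjusted p under 0.05. The C1ql2 and Cabp7 spots, which also had Dsp and Prox1 among their leading genes, were kept apart from it and held 21.0 CPM. With coarser clustering the dentate gyrus was at 36.5 CPM. It could then not be told apart from the medial habenula, at 35.9 CPM (adjusted p = 0.56, edgeR). Of the 2 clusters joined in the medial habenula, the one led by Gm5741 and Tac2 held 50.5 ± 12.6 CPM and the other, led by Gpr151, 18.4 ± 6.72 CPM. With each cluster taken as its own area, the first of these led and could not be told apart from the dentate gyrus (adjusted p = 0.78). Htr2c ran the other way, with 68.2 ± 18.2 CPM in the Gm5741 and Tac2 spots and 143.1 ± 25.8 CPM in the Gpr151 spots. In the isocortex Htr4 was low, down to a mean of 2.52 CPM in the Kcnh5 and Gm11549 spots.

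Htr7 (chromosome 19, 35958734 to 36057507), a receptor tied to circadian timing and arousal, followed the diencephalon. It stood at 38.33, 37.62, 56.07 and 33.65 CPM in the hypothalamus and at 30.20, 30.52, 35.97 and 42.35 CPM in the thalamus. These overlapped (adjusted p = 0.21 for their difference). The Tshz2 and Lamp5 spots, at 30.9 ± 4.65 CPM, could not be told apart from the hypothalamus either (adjusted p = 0.18). The hypothalamus was 2.71-fold above the mean of the other areas (adjusted p = 2.0e-27). Of the 4552 Htr7 UMIs, 33.3% lay in the thalamus and 27.7% in the hypothalamus. The thalamus was not uniform. Its Calb2, Lhx9 and Gbx2 spots were at 73.3 ± 16.8 CPM, with 49.2 CPM in the lowest section, and its Rab37 and Prkcd spots at 21.1 ± 6.41 CPM, with 27.3 CPM in the highest, so the sections of these clusters did not overlap. With each cluster taken as its own area, the Calb2, Lhx9 and Gbx2 spots led for Htr7 in place of the hypothalamus. Another thalamic cluster was second, at 56.9 CPM (adjusted p = 0.31 for their difference, edgeR). CA1, with 15 Htr7 UMIs in all, was at 4.04 ± 3.72 CPM.

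Htr6, a receptor concentrated in the striatum in textbook maps, was close to the limit of this assay. Its 415 UMIs gave 4.26 ± 3.18 CPM in the Tshz2 and Lamp5 spots and 4.25 ± 1.68 CPM in the striatum, from 18 and 29 UMIs. It did not pass the filter on low counts for the comparison of areas and was not tested there. No UMI of Htr6 or of Htr1f was seen in the choroid plexus. At the depth of that area 3 UMIs correspond to 5.28 to 12.4 CPM depending on the section, so levels below that are allowed by a count of 0. These limits cover counting error only.

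**Figure D2:**
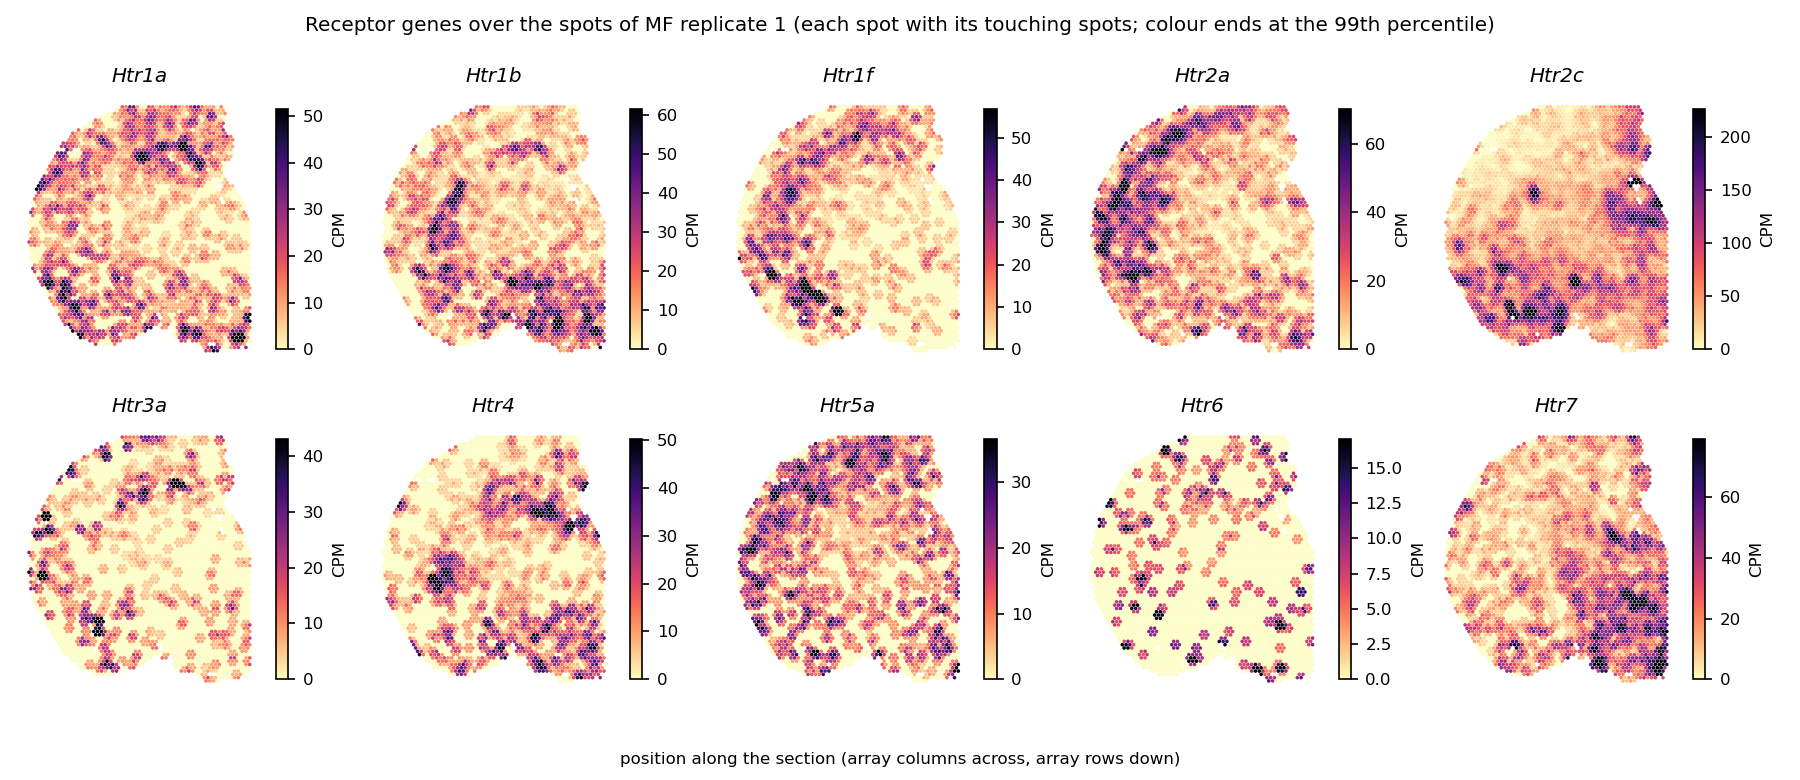
The 10 serotonin receptor genes over the spots of MF replicate 1, the most deeply sequenced section, drawn in array positions. Each point is the CPM of a spot summed with its touching spots, colour ends at the 99th percentile, and the CA1 line of Htr1a, the striatal patch of Htr1b and Htr4, the cortical band of Htr2a and the medial and ventral field of Htr7 can be seen.

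In all, 9 of the 9 receptors tested were called higher in their leading area, at an adjusted p under 0.05 and at least 2-fold, where 34.3% of all 12524 genes tested were. For 4 of the 9, Htr1a, Htr1f, Htr2a and Htr4, the leading area was also above the second, which held for 29.6% of all genes. The leading area was picked by the same levels that were then tested, so these calls describe where a gene peaked and do not stand apart from the choice of area. Without MF replicate 1 the step to the second area was called for 1 receptor and without MF replicate 2 for 2. With spots thinned to 5000 UMIs only Htr1a kept that step at an adjusted p under 0.05, and the highest means stayed in the same area except for Htr2c, which moved to the Ccn3 and Slc30a3 spots. With genes scaled over all spots before clustering, Htr1f and Htr2a both led in the striatum among 15 areas. Cortical layer 6 and the cortical spots led by Kcnh5 were not among these. They held 6 and 4 spots in MF replicate 1.

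**Figure D3:**
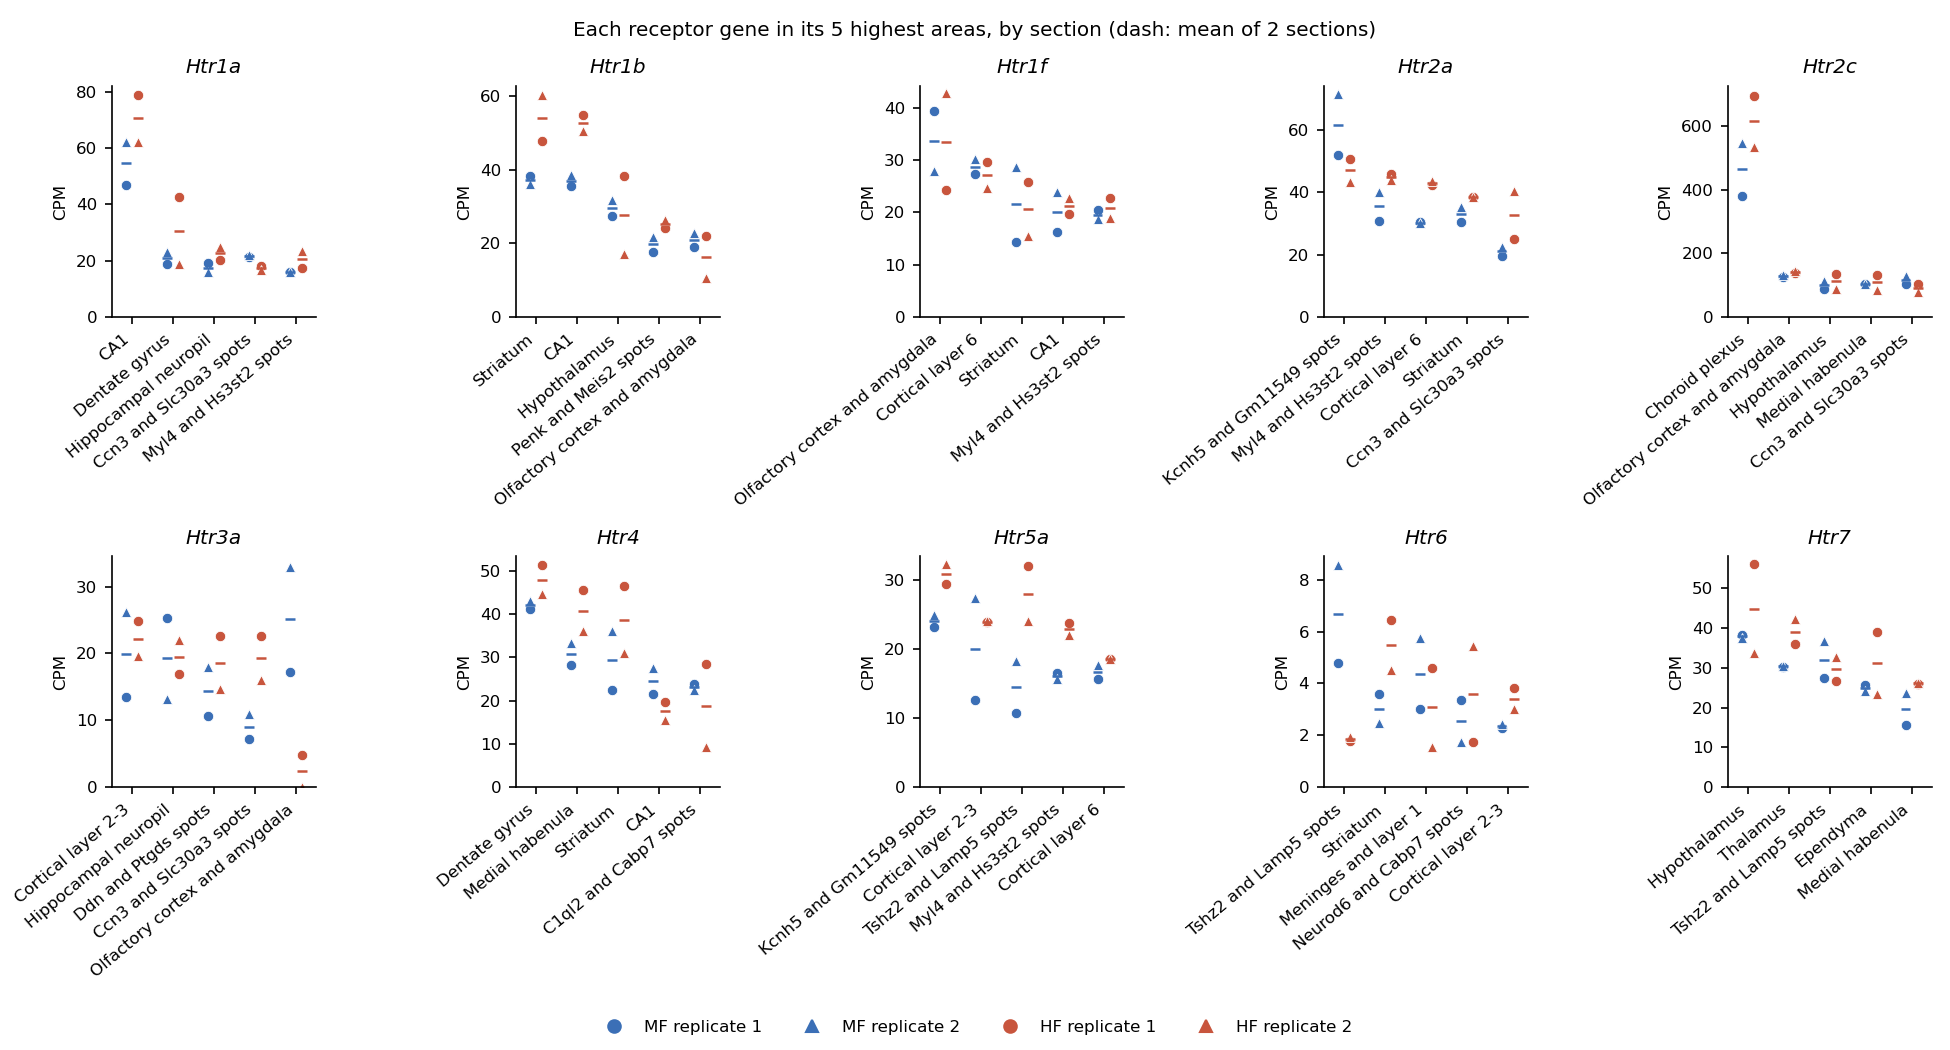
Each serotonin receptor gene in the 5 areas with its highest mean CPM, 1 point a section (blue MF, red HF, circle replicate 1, triangle replicate 2) and a dash at the mean of the 2 sections of a diet. The CA1 points of Htr1a, from 47.0 to 79.0 CPM, and the choroid plexus points of Htr2c, from 380.0 to 695.2 CPM, lie above all points of the areas beside them.

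Moran's I, the score of spatial autocorrelation that the authors deposited for each feature, also differed between the receptors. It was highest for Htr2c, between 0.222 and 0.283, which placed the gene among the top 1.79% to 3.94% of features. For Htr6 it lay between 0.0048 and 0.015. Htr7, Htr2a, Htr4 and Htr1b lay between 0.062 and 0.133. Htr1f reached from 0.047 to 0.121, and Htr1a, whose peak is a thin layer, from 0.032 to 0.057. Htr3a and Htr5a, with 0.023 to 0.052 and 0.013 to 0.030, were also low. The part of UMI number in these scores was not tested.

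The receptors had few patterns in common. Over the 24 areas the closest pair was Htr1f and Htr2a (Pearson r = 0.76 of mean log2(CPM + 1)), followed by Htr5a and Htr6 (r = 0.67), and the most opposed were Htr1a and Htr2c (r = -0.48). The genes most like each receptor were Bcl6, Dmac1 and Ripor1 for Htr1a (r up to 0.85), Tmem158, Bcr and Sp9 for Htr1b (up to 0.85) and Rspo2, Muc3a and Caln1 for Htr1f (up to 0.84). They were Golga7b, Eif4g3 and Pgap3 for Htr5a (up to 0.90), Vti1b, Slc39a10 and Arhgap26 for Htr2a (up to 0.82), and Phactr2, Fam117a and Cpne2, which all peaked in choroid plexus, for Htr2c (up to 0.79). For Htr3a they were Neurl1a, Palm and Wdr13, for Htr4 Rmc1, Hspe1 and Slc39a11, for Htr6 Begain, Rbfa and Cst6, and for Htr7 Camk2n2, Rims3 and Pitpnm1, all of which peaked in the thalamus. These likenesses are over 24 areas that share libraries and are descriptions among 13336 genes.

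Other genes of serotonin signalling had features for 37 of 38 on the list, and 31 of them passed the filter on low counts. Of these, 18 were called higher in a leading area, as were 34.3% of all genes tested. For 11 the leading area was also above the second, as it was for 29.6% of all genes. Here too the leading area was picked by the levels that were then tested. Htr5b, a receptor gene that is a pseudogene in humans, peaked in the medial habenula at 82.8 CPM, 24.2-fold above the mean of the other areas. The striatum led for the G protein subunit Gnal, 3.90-fold above the other areas, and the adenylyl cyclase Adcy5, 6.37-fold above them. The thalamus led for the phospholipase Plcb4, 5.06-fold above the other areas, and the ependyma for the vesicular transporter Slc18a2, 12.6-fold above their mean. Slc18a2 was at 51.4 CPM in the ependyma and at 46.3 CPM in the hypothalamus, which could not be told apart (adjusted p = 0.72, edgeR). The larger of the ependyma clusters also had the hypothalamus markers Dlk1, Gpx3 and Baiap3 among its leading genes. The dentate gyrus led for the monoamine transporter Slc29a4 (4.94-fold) and the adenylyl cyclase Adcy1 (3.04-fold). Tph2, the enzyme that makes serotonin in neurons, and Slc6a4, the serotonin transporter, did not pass the filter.

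For the diet, the question was whether any receptor differed between HF and MF sections. The 6 regions tested leave out the 1120 white matter spots and 1082 spots placed in no region, among them the Ddn and Ptgds spots. Over the whole section and 6 regions, 61 of the 70 pairs of receptor and region passed the filter on low counts, and 0 were called at an adjusted p under 0.05 and at least 1.2-fold in edgeR. An unadjusted p under 0.05 was reached by 8 of the 61 (13.1%), against 6.88% of the pairs of all genes, and DESeq2 also called 0. The smallest adjusted p was 0.096, for Htr2c in the ventricular system. Over all genes the same rule called 0.0% for the whole section, thalamus (0.0%) and hypothalamus (0.0%), and 0.0363% for cortex, 0.129% for hippocampus, 0.045% for striatum and 0.0327% for the ventricular system. In the finer areas 0 of 139 pairs were called, where 0.115% of all pairs of gene and area were. There 11 had an unadjusted p under 0.05, which is 7.91% against 6.18% for all genes. In simulated counts 64% of genes changed 1.5-fold were recovered in the whole section and 31% in the striatum, so differences of that size could be missed. In the same counts 15 and 4 unchanged genes were called. The changed genes were drawn from all genes that passed the filter, so recovery at the counts of the receptors was not measured.

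**Figure D4:**
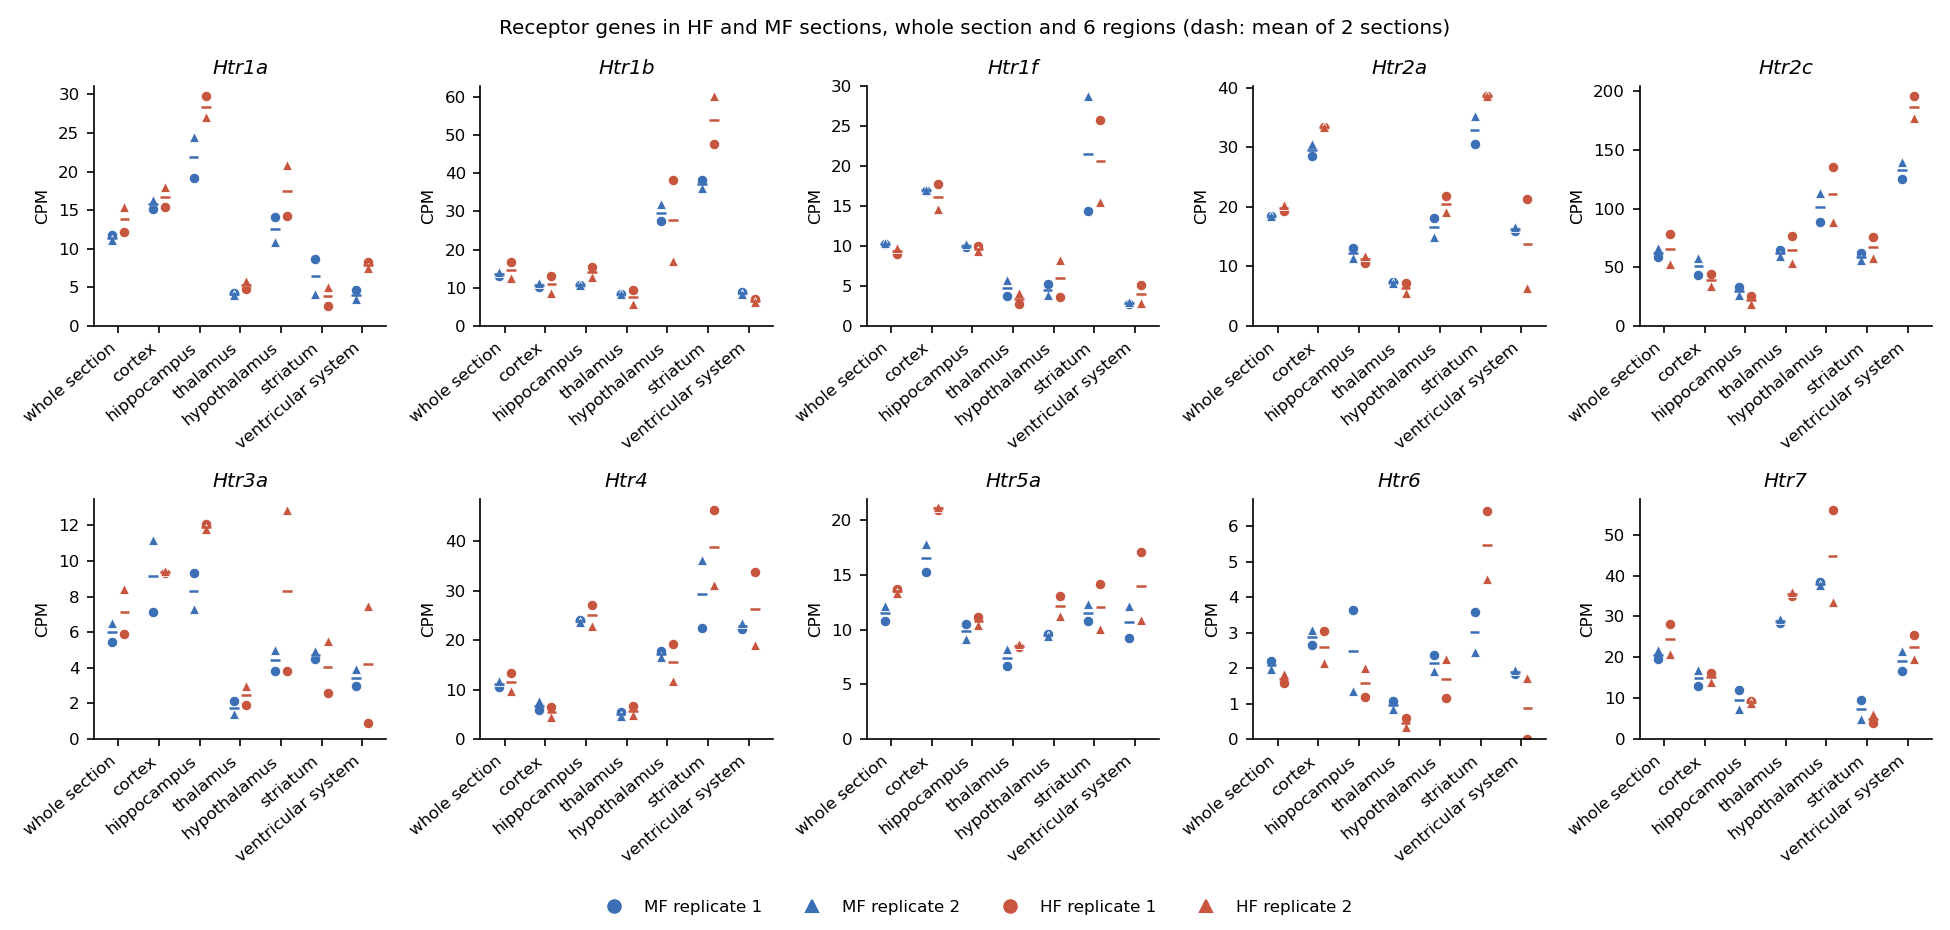
Each serotonin receptor gene in the whole section and 6 regions (CPM), 1 point a section (blue MF, red HF, circle replicate 1, triangle replicate 2) and a dash at the mean of the 2 sections of a diet. In the striatum both HF sections lie above both MF sections for Htr1b, and in the hypothalamus HF replicates 1 and 2 lie on opposite sides of the MF sections for Htr1b, Htr4 and Htr7.

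In whole sections, HF and MF values did not overlap for 5 of the 10 receptors, where 39.6% of all genes did not overlap. Htr1a stood at 11.72 and 11.08 CPM in MF and at 12.21 and 15.36 CPM in HF (log2 0.27 ± 0.14 SE, adjusted p = 0.73), and with 1 section left out its log2 ranged from 0.07 to 0.43. Htr5a stood at 10.81 and 12.16 CPM in MF and at 13.72 and 13.39 CPM in HF (log2 0.23 ± 0.11, adjusted p = 0.73). Htr2a was also higher in both HF sections, by log2 0.09 ± 0.09 (0.04 to 0.14 with 1 section left out). Htr1f and Htr6 were lower in both, with log2 values of -0.14 ± 0.11 (-0.22 to -0.07) and -0.30 ± 0.19 (-0.45 to -0.20). The other 5 overlapped, and for Htr2c the HF sections, at 78.64 and 52.84 CPM, lay on either side of MF at 58.47 and 66.50 CPM. Among the sums of cell type markers, those of oligodendrocytes and choroid plexus did not overlap between diets. Those of astrocytes, microglia, endothelium, blood and interneurons overlapped. The 11 oligodendrocyte markers stood at 24091 and 25082 CPM in MF and 19981 and 21185 CPM in HF, and the 11 choroid plexus markers at 2476 and 2329 CPM in MF and 3466 and 3830 CPM in HF. Their part in these values was not tested.

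The region where the diets came closest to a call was the ventricular system, made of medial habenula, ependyma and choroid plexus spots. Htr2c stood there at 125.5 and 140.0 CPM in MF and at 195.8 and 177.6 CPM in HF, without overlap and 1.43-fold higher in HF (log2 0.52 ± 0.12 SE, adjusted p = 0.096). Of all genes tested there, 38.5% did not overlap between diets. The summed level of the 11 choroid plexus markers moved the same way, from 26621 and 28650 CPM in MF to 39484 and 62347 CPM in HF. Oligodendrocyte markers summed to 21655 and 21294 CPM in MF and to 19505 and 15902 CPM in HF. Astrocyte markers summed to 1920 and 1918 CPM in MF and to 1863 and 1685 CPM in HF. The sums of microglia, endothelium, blood and interneurons overlapped. The part of these sums in the difference was not tested. The medial habenula gave 72 and 61 spots in MF and 66 and 34 spots in HF. Within the choroid plexus spots Htr2c overlapped between diets, with 379.98 and 547.53 CPM in MF and 695.20 and 533.63 CPM in HF (log2 0.52 ± 0.18, adjusted p = 0.22). In these spots the sum of choroid plexus markers was again higher in HF, at 232460 and 233147 CPM against 170995 and 203164 CPM. In the medial habenula, Htr2c was at 103.4 and 102.6 CPM in MF and 132.4 and 84.4 CPM in HF, and in the ependyma the diets overlapped as well.

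**Figure D5:**
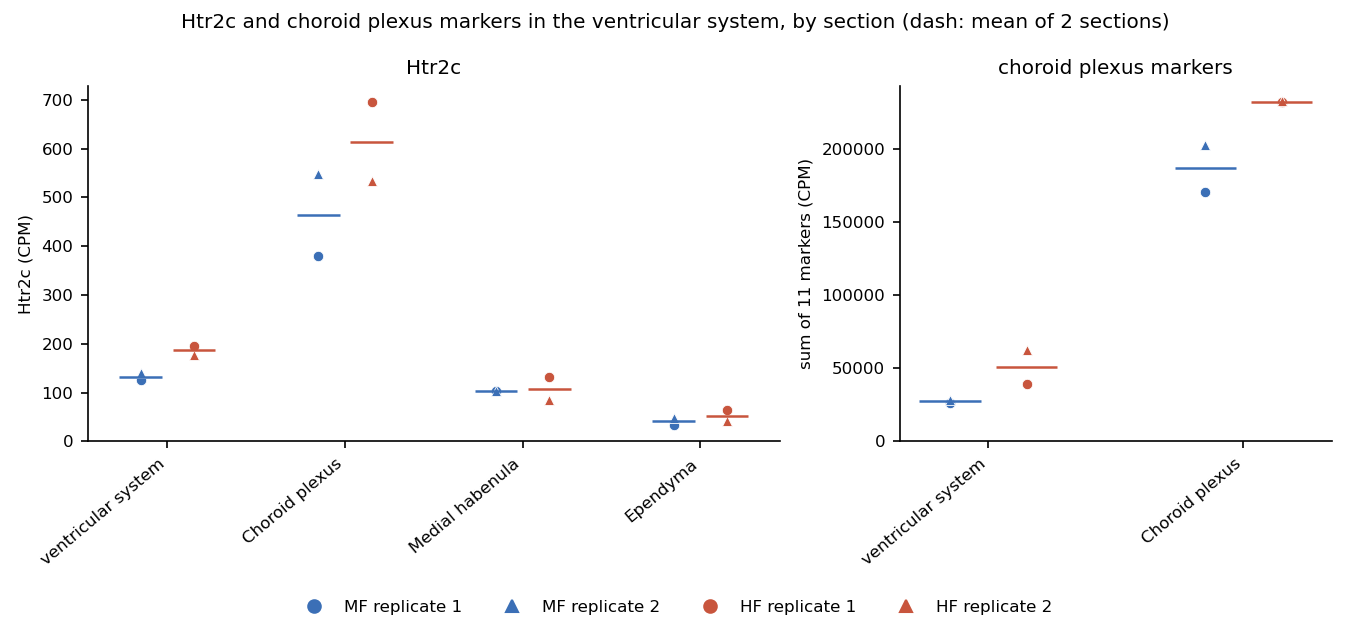
Htr2c (left, CPM) in the ventricular system and its 3 areas, and the summed level of 11 choroid plexus markers (right, CPM), 1 point a section (blue MF, red HF, circle replicate 1, triangle replicate 2) and a dash at the mean of the 2 sections of a diet. Htr2c in the ventricular system was 125.5 and 140.0 CPM in MF and 195.8 and 177.6 CPM in HF, and the marker sum was higher in both HF sections too.

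In the striatum, Htr1b stood at 38.34 and 36.13 CPM in MF and 47.66 and 60.22 CPM in HF (log2 0.57 ± 0.19 SE, adjusted p = 0.57). In the cortex Htr5a stood at 15.27 and 17.82 CPM in MF and 20.97 and 21.19 CPM in HF (log2 0.37 ± 0.13, adjusted p = 0.70). In the hippocampus Htr2c stood at 32.76 and 26.40 CPM in MF and 25.61 and 18.20 CPM in HF (log2 -0.48 ± 0.18, adjusted p = 0.58). In the thalamus Htr7 stood at 28.34 and 29.45 CPM in MF and 34.95 and 36.01 CPM in HF (log2 0.29 ± 0.11, adjusted p = 0.88). None of these 4 was called. Their diets did not overlap, which was common in these data. Of all genes tested, 35.5% did not overlap in striatum, 36.4% in cortex, 36.9% in hippocampus and 36.5% in thalamus. The summed level of 11 oligodendrocyte markers was lower in both HF sections in each of these regions. In the striatum it stood at 32209 and 29203 CPM in MF and 26108 and 25591 CPM in HF. In the hippocampus it stood at 14945 and 13245 CPM in MF and 10413 and 9193 CPM in HF. The cortex gave 12097 and 11330 CPM in MF and 9528 and 8883 CPM in HF, and the thalamus 28756 and 29473 CPM in MF and 22753 and 26435 CPM in HF. The 10 interneuron markers summed to 1754 and 1640 CPM in the striatum of MF and to 2184 and 1970 CPM in that of HF. In the cortex, hippocampus and thalamus the interneuron sums overlapped between diets. Astrocyte markers in the striatum summed to 1767 and 1665 CPM in MF and 1591 and 1545 CPM in HF. Their sums were also lower in both HF sections in the cortex and overlapped in the hippocampus and thalamus. The part of these sums in the differences was not tested.

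In the hypothalamus the HF sections lay far apart. Htr3a stood there at 3.84 and 4.996 CPM in MF and at 3.79 and 12.86 CPM in HF, Htr1b at 27.50 and 31.89 CPM in MF and at 38.26 and 17.05 CPM in HF, and Htr7 at 38.33 and 37.62 CPM in MF and at 56.07 and 33.65 CPM in HF. In each of these the HF sections lay on either side of both MF sections, and the distance between the HF sections exceeded that between diets. The sections also differed in which hypothalamic spots they held. A cluster led by Dlk1 and Baiap3 gave 3 and 33 spots in MF and 126 and 102 spots in HF, and a cluster led by Baiap3 and Gpx3 gave 201 and 66 spots in MF and 60 and 40 spots in HF. The part of this in the levels was not tested.

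With 1 HF section left out, the HF diet rests on a single section, which is assumed to vary like the MF pair, so a call there compares that section with MF and not the diets. Without HF replicate 1, which leaves HF replicate 2 alone, 8 pairs of receptor and region were called, among them Htr3a and Htr1b in the hypothalamus (log2 1.57 ± 0.27 and -0.80 ± 0.18) and Htr1a in the whole section (0.43 ± 0.10). Of all pairs of gene and region, 4.99% were called in that setting. Without HF replicate 2, 5 pairs were called, among them Htr7 in the hypothalamus (log2 0.54 ± 0.14), against 3.07% of all pairs. Htr2c in the ventricular system passed the rule in both settings (log2 0.47 ± 0.13 and 0.57 ± 0.12), which share both MF sections and so are not separate evidence. In the finer areas the settings gave 6 calls (1.78% of all pairs) and 3 calls (1.18%). Leaving out either MF section gave 0 calls of receptors.

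Whether the difference between diets varied from region to region was tested over cortex, hippocampus, thalamus, hypothalamus and striatum. It was called for 0 of the 10 receptors, and 0.0146% of all genes were called. An unadjusted p under 0.05 was reached by 2 of the 10, and by 6.3% of all genes. The smallest adjusted p belonged to Htr2c, at 0.60, with a range of 1.56-fold between regions. Htr1b followed at 0.78 with a range of 1.79-fold.

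The methods of the study tested single spots with a Wilcoxon rank sum test, which treats spots of 1 section as replicates. Run that way, it called 3 of the 70 pairs, where 2.83% of all pairs of gene and region were called. These were Htr2c in the cortex (log2 -0.39, mean over spots 52.2 CPM in MF and 39.6 in HF), Htr2c in the hippocampus (log2 -0.51, 30.2 and 20.9 CPM) and Htr4 in the cortex (log2 -0.32, 6.66 and 5.13 CPM). After spots were thinned to 5000 UMIs it called 0 of the 70, with 0.644% called over all pairs. Over sections, Htr2c in the cortex stood at 43.64 and 57.80 CPM in MF and 43.90 and 34.15 CPM in HF, which overlap. The 2 cortical areas richest in it, olfactory cortex and amygdala and the Ccn3 and Slc30a3 spots, gave 77 and 84 and 145 and 206 spots in MF but 67 and 17 and 118 and 103 spots in HF, and the part of this in the difference was not tested.

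Among the other 37 genes of serotonin signalling, 0 of 219 pairs of gene and region were called, and 21 (9.59%) had an unadjusted p under 0.05. In the finer areas 1 of 572 pairs was called, close to the 0.115% called over all genes, so this single call is no result about the list. It was Rgs2, a regulator that shortens G protein signals, in the Myl4 and Hs3st2 spots, at 62.7 and 61.5 CPM in MF and at 94.9 and 87.9 CPM in HF (adjusted p = 0.045).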

How the data were processed

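The sections were 5 µm coronal cuts of fixed brain on Visium slides. Per the labels and the study's methods, the authors aligned probe reads to mm10 with Space Ranger and deposited raw UMI counts for each spot under tissue, without normalization, spot positions, and for each feature an unscaled score, Moran's I, of how alike neighbouring spots are. Deposited image scale factors were not used. As in the study, spots below 500 UMIs or below 250 genes were left out, which took away 18 of 13470. CPM are UMIs per 1e6 UMIs of the area or section.

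Variable genes without serotonin genes (2000, scaled within sections, 30 components, 20 neighbours) were clustered by Leiden at resolution 2 (leidenalg 0.10.2), giving 40 clusters. A cluster was named from the class with most markers among its 50 leading genes, at least 3, and more than any rival among its 15 leading genes. The others carry 2 leading genes (1 gene is not reported here and was passed over in labels), and clusters of 1 class were joined to 24 areas. The study named regions by hand from histology, which was not used here.

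UMIs were summed per section and area and tested with edgeR 4.0.16 (quasi-likelihood, TMM, filterByExpr, Benjamini-Hochberg over all genes of a fit), since spots of 1 section are not replicates. Log2 values carry the SE derived from the F statistic. Nothing in the labels says that the sections of a diet came from separate litters, so p-values measure the spread between these sections. The labels do not say that the replicate numbers pair the sections. Deviations from the diet means correlated at -0.16 over 14971 genes. This single value cannot show whether the sections are paired, so the main diet test used no pairing and a replicate block was an alternative.

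Alternatives were DESeq2 1.42.0, a replicate block, thinning, no filter, library size alone, other clusterings, areas by marker score, each section left out and the methods' rank sum test. Scripts were tested on simulated data. The receptors, lists and areas were chosen with earlier results of these data known. All 10 receptors are named, and for likeness the 3 genes with the highest r among genes of at least 5 CPM in an area. Gene positions are from GENCODE vM21. Spot barcodes recur in all sections because they mark array positions, 2472 in all 4.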

Additional observations from a re-analysis of the deposited data

How the results depend on the processing

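A leading area was called for 8 to 10 receptors under every alternative run, but it was not always the same area. With genes scaled over all spots Htr1f and Htr2a led in the striatum, Htr5a in cortical layer 2-3 and Htr2c in the medial habenula. In that setting cortical layer 6 and the cortical spots led by Kcnh5 had too few spots in MF replicate 1 to be compared. With areas by marker score Htr2a led in cortical layer 4, Htr5a in layer 2-3, Htr3a in olfactory cortex and amygdala and Htr2c in choroid plexus. Leaving out 1 section moved Htr1b to CA1 (HF replicate 2), Htr3a to the hippocampal neuropil (MF replicate 2 or HF replicate 1), and Htr2c to the medial habenula (MF replicate 2 or HF replicate 2) or the Ccn3 and Slc30a3 spots (HF replicate 1). At Leiden resolution 1 Htr2c led in spots named for Ccn3 and Lmo3. Htr1a in CA1, Htr4 in the dentate gyrus and Htr7 in the hypothalamus led in every setting that kept areas of joined clusters. The step of Htr4 to its second area was not resolved in several settings (edgeR). Among them were Leiden resolution 1 (adjusted p = 0.56), areas by marker score (0.55) and thinned spots (0.78). With each cluster as an area, Htr7 led in a thalamic cluster. The step from the leading to the second area, called for 4, was called for 1 with spots thinned to 5000 UMIs, for 2 with each cluster as an area, an alternative chosen after seeing the data, and for 1 to 5 with 1 section left out. Between diets, the count over the whole section and 6 regions moved from 0 to 1 with no filter on low counts (Htr2c in the ventricular system) and to 3 with the methods' rank sum test, and ranged from 0 to 8 with 1 section left out. The count over finer areas moved from 0 to 2 with areas by marker score (Htr2c in CA1 and choroid plexus) and ranged from 0 to 6 with 1 section left out. For the difference between regions it moved from 0 to 1 with no filter (Htr2c), and ranged from 0 to 1 with 1 section left out. The cause of these moves in the counts was not tested. With a replicate block the diet counts stayed at 0, and with the crossed pairing, added after seeing the data, they were 0 as well.

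With thinned spots the whole-section log2 values of HF over MF turned to -0.070 for Htr1b, -0.071 for Htr2c, -0.013 for Htr3a and -0.14 for Htr4. With 1 section left out they ranged from -0.12 to 0.28 for Htr1b, from -0.23 to 0.31 for Htr2c, from -0.027 to 0.52 for Htr3a and from -0.18 to 0.24 for Htr4, so no direction can be read for these genes. With 2 sections a diet and 415 UMIs of Htr6, small differences were below what these data could detect.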
